A study of Mus musculus with 12 samples.

Results

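The genes followed here, 10 in number, mark microglia and other tissue macrophages, and their levels were compared across 4 groups of mouse RNA-seq libraries. The members were taken by name from a table of raw gene counts, in which all 10 of them were found among 22317 gene symbols. P2ry12, Tmem119, Fcrls and Sall1 were treated as the 4 microglial members, Csf1r, Aif1, Adgre1 and Trem2 as 4 members shared by microglia and other macrophages, and Mrc1 and Lyve1 as 2 members of perivascular and other resident macrophages. All mice were wild-type male BALB/c animals of 8 weeks with photothrombosis (PT), in which Rose Bengal dye in the blood is lit by a laser so that the vessels under the light spot close. The groups SB2 and SB4 are labelled brain cortex on day 2 and day 4 of ischemic injury in the skull, and the groups BS2 and BS6 are labelled interparietal bone on day 2 and day 6 of ischemic injury in the brain. Each group held 3 libraries, which the methods call biological replicates. RNA was extracted from whole pieces of brain or skull, so each library mixes many cell types. A protocol text shared by all samples speaks of ischemic and peri-ischemic regions in the tissue, without saying how this applies to groups whose label puts the injury in the other tissue. Libraries from uninjured animals or of the injured tissue were not analysed here.

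Microglia are the resident macrophages of the brain parenchyma. They depend on signalling through the receptor CSF1R, which is activated by the ligands CSF1 and IL-34, and they carry genes such as P2ry12 and Sall1 that set them apart from macrophages elsewhere. Perivascular and meningeal macrophages line the vessels and borders of the brain and express Mrc1 and Lyve1, as do many resident macrophages outside the brain. Bone holds its own macrophages in marrow and on bone surfaces, as well as osteoclasts, which resorb bone, arise from the same myeloid lineage and also need CSF1R. Several of the marker genes are used by other cells too. Tmem119 is made by bone-forming osteoblasts, P2ry12 by platelets, Trem2 by osteoclasts and Lyve1 by lymphatic endothelium.

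The total count per library was 14126082 to 18972654, and levels are given as CPM, the count of a gene scaled to a common library size. A gene with 0 counts may hold up to 3, which is 0.163 to 0.218 CPM depending on the library. Such limits cover counting error only. The labels and the tissue markers did not match in SB2 and BS2. The summed level of 5 osteoblast and osteocyte genes was 36559 to 41651 CPM in the libraries labelled SB2 and 19056 to 79091 CPM in those labelled BS6, against 7.88 to 10.7 CPM in SB4 and 10.3 to 18.1 CPM in BS2. The summed level of 6 neuron genes was 7706 to 8102 CPM in SB4 and 7436 to 7579 CPM in BS2, against 26.0 to 54.9 CPM in the libraries labelled SB2 and 37.8 to 115 CPM in BS6. The libraries labelled SB2 and BS6 therefore held bone transcripts, and those labelled SB4 and BS2 held brain transcripts. By their labels SB2 and SB4 share the injury in the skull, and BS2 and BS6 the injury in the brain. Tissue content and day cannot be told apart in the comparisons of SB4 with SB2 and of BS6 with BS2. Whether the titles of SB2 and BS2 were exchanged was not tested, and if they were, the site of injury would differ within both comparisons as well. Every direction given here is a direction between libraries with these labels.

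**Figure D1:**
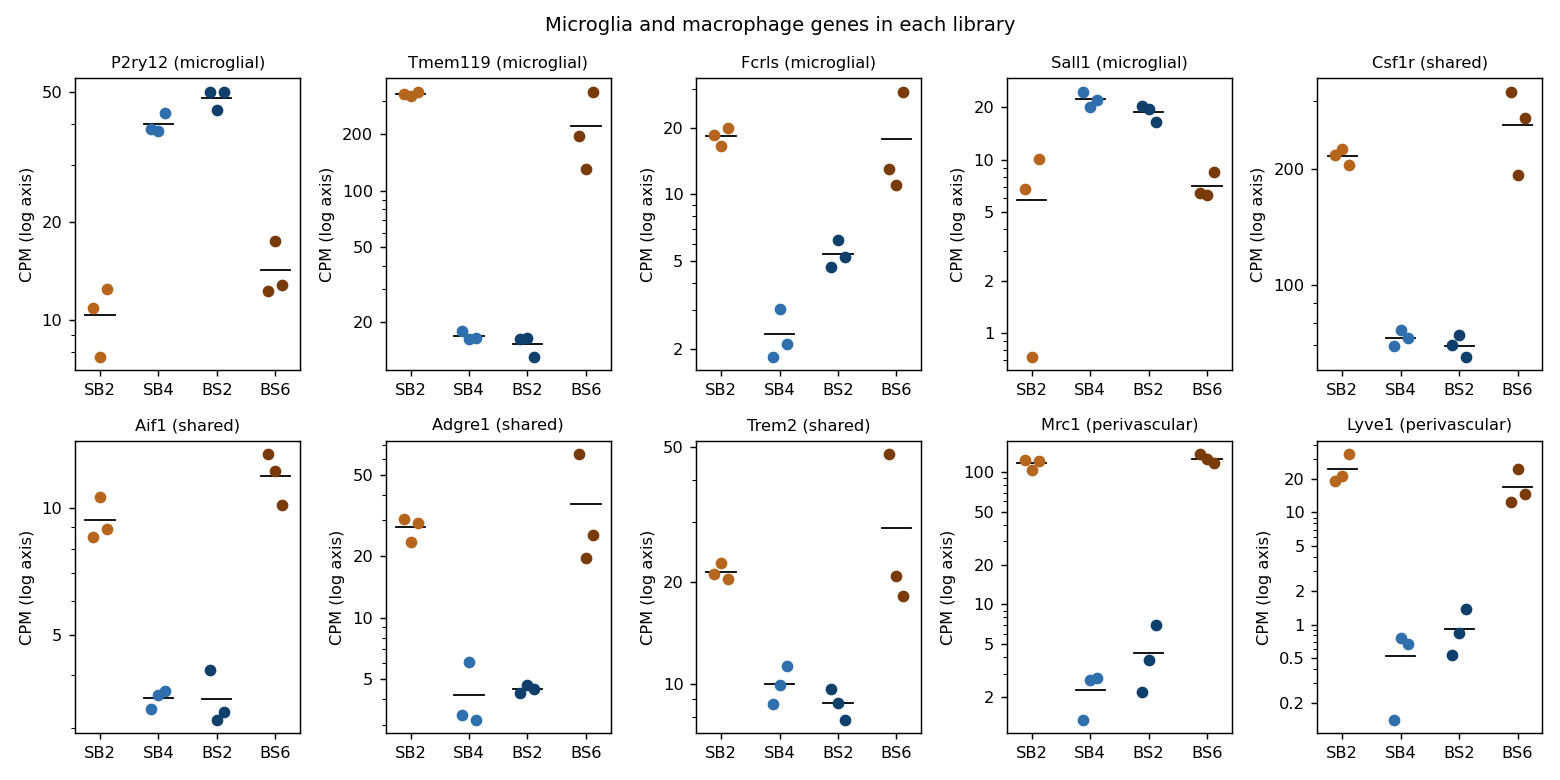
Level of each of the 10 genes in CPM (log axis) in the 3 libraries of SB2, SB4, BS2 and BS6, with a point per library and a line at the group mean. P2ry12 and Sall1 were highest in SB4 and BS2, and the other 8 genes were highest in the libraries labelled SB2 and BS6.

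The promoters of the members were looked up because many macrophage genes are switched on by the transcription factor PU.1, which is encoded by Spi1 and recognises purine-rich sites. The promoter table of RefSeq (build GRCm38.p6) held 6 of the 10 members in 8 entries. The 250 bases before the start site were searched on both strands for the PU box GAGGAA, which reads TTCCTC on the other strand, and 23.3% of 32851 promoters of the same length held it. Promoters of P2ry12, a member that was high in SB4 and BS2, and of Mrc1 and Trem2, members that were high in SB2 and BS6, are shown 5′ to 3′ on the strand of the gene, with matches in capitals. They lie at chr3:59262986-59263235 on the minus strand for P2ry12, at chr2:14229164-14229413 on the plus strand for Mrc1 and at chr17:48346151-48346400 on the plus strand for Trem2.
P2ry12: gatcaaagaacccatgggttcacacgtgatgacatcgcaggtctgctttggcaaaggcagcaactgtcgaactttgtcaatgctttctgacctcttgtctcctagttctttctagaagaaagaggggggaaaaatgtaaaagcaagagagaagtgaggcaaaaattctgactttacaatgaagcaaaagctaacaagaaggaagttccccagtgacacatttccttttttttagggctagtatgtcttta
Mrc1: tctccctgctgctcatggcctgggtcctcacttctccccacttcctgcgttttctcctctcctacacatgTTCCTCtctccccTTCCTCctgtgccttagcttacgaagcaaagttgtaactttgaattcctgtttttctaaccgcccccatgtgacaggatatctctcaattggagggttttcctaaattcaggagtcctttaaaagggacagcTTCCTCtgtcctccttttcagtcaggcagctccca
Trem2: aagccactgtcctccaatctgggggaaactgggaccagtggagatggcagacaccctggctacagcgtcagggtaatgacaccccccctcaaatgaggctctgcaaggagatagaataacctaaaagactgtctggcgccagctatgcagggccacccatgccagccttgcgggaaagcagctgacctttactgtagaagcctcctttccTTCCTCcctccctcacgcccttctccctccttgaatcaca

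The Mrc1 promoter held 3 matches, which begin at positions -180, -167 and -35 from the start site, and the Trem2 promoter held 1 at position -40. Fcrls held 1 match at position -144 and Aif1 held 1 at position -7. Positions count from the start sites of RefSeq, which are not always those of the GENCODE gene coordinates given below. By the GENCODE coordinates the matches of Fcrls and Aif1 lie inside the gene. No match of these letters was found in the windows of P2ry12 and Sall1. The composite motif of ETS and interferon regulatory factors was found in none of the 6 members' windows and in 2.3% of all promoters. A match describes the sequence and does not show that a factor binds there.

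P2ry12 encodes a purinergic receptor that senses ADP and is a marker of microglia in the resting brain. The gene lies on chromosome 3 from 59216272 to 59262871 on the minus strand of mm10. Its level was 10.9, 7.73 and 12.5 CPM in the 3 libraries of SB2, 38.7, 38.1 and 43.3 CPM in SB4, 50.2, 44.2 and 50.3 CPM in BS2, and 12.3, 17.5 and 12.9 CPM in BS6. All libraries of SB4 and BS2 lay above all libraries of SB2 and BS6. P2ry12 was 3.87-fold higher in SB4 than in SB2, a log2 fold change of 1.95 (SE 0.15, adjusted p = 4.522e-07 by edgeR). It was 3.39-fold lower in BS6 than in BS2, a log2 fold change of -1.72 (SE 0.17, adjusted p = 0.0001556 by edgeR). In tissue of mixed cells, fewer cells of a type and less RNA per cell cannot be told apart.

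To be called, a gene needed a log2 fold change beyond 1 in either direction together with an adjusted p below 0.05. Of the 17293 genes tested in SB4 against SB2, 27.8% were called higher and 28.6% lower in SB4. Of the 17311 genes tested in BS6 against BS2, 29% were called higher and 26.5% lower in BS6. Against this background 1 member was called higher in SB4, 8 were called lower and 1 was not called, and in BS6 against BS2 8 members were called higher and 2 lower. The median log2 fold change over all genes tested was -0.0149 and 0.02 in these comparisons.

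Platelets, which also use P2ry12, were followed with 4 platelet and megakaryocyte genes found in the table. Their summed level was 121 to 134 CPM in SB2 and 147 to 267 CPM in BS6, against 3.34 to 5.38 CPM in SB4 and 4.00 to 7.02 CPM in BS2. All 4 of them were lower in SB4 than in SB2, the direction opposite to P2ry12. Within BS6 the highest P2ry12 level (17.5 CPM) was in replicate 2, the library with the highest platelet sum of 267 CPM and also with the highest neuron sum of 115 CPM. In SB2 the lowest P2ry12 level (7.73 CPM) was in replicate 2, where the platelet sum was highest (134 CPM) and the neuron sum lowest (25.97 CPM, against 52.3 and 54.9 CPM). The part of platelets and that of brain transcripts in the P2ry12 level of SB2 and BS6 were not tested. Exons of P2ry12 share 9 bases with Med12l on the opposite strand, and Med12l was at 16.0, 42.8, 44.9 and 11.4 CPM (group means of SB2, SB4, BS2 and BS6). Only exons were compared, so bases that P2ry12 may share with introns of Med12l are not in this number. Whether reads were counted by strand is not stated in the sources used here. The part of Med12l reads in the P2ry12 level was not tested.

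Sall1, which encodes a zinc finger transcription factor that maintains microglial identity, had the same pattern with a wider spread. The gene lies on chromosome 8 from 89027235 to 89044162 on the minus strand. Its level was 6.78, 0.733 and 10.1 CPM in SB2, 24.6, 20.1 and 22.1 CPM in SB4, 20.4, 19.6 and 16.5 CPM in BS2, and 6.46, 6.28 and 8.46 CPM in BS6. The 3 libraries of SB4 lay above those of SB2 without overlap, and SB2 replicate 2 stood apart with 11 counts. That library also had the lowest neuron sum of its group, at 25.97 CPM, and the part of brain transcripts in the Sall1 level of SB2 was not tested. Sall1 was lower in BS6 than in BS2, by 1.38 on the log2 scale (log2 fold change -1.38, SE 0.17, adjusted p = 0.0004437 by edgeR), or 2.67-fold. Between SB4 and SB2 its log2 fold change was 1.90 with an SE of 0.74, and it was not called (adjusted p = 0.06483 by edgeR). Without SB2 replicate 2 the log2 fold change was 1.40 and it was called (adjusted p = 4.282e-05 by edgeR). Without SB2 replicate 3 it was 2.52 and called (adjusted p = 0.04274 by edgeR). DESeq2 gave 1.94 with an adjusted p of 0.04025, and a fit of all 12 libraries gave 1.90 with an adjusted p of 0.008534 by edgeR.

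Tmem119, a membrane protein gene widely used as a microglial marker, moved the opposite way. The gene lies on chromosome 5 from 113793729 to 113800516 on the minus strand. Its level was 327, 318 and 337 CPM in SB2, 18.0, 16.4 and 16.4 CPM in SB4, 16.3, 16.6 and 13.1 CPM in BS2, and 197, 130 and 335 CPM in BS6. Every library of SB2 and BS6 lay above every library of SB4 and BS2, and the 3 libraries of BS6 spread widely. Tmem119 was 19.3-fold lower in SB4 than in SB2, with a log2 fold change of -4.27 (SE 0.08, adjusted p = 1.876e-12 by edgeR). It was 14.4-fold higher in BS6 than in BS2, with a log2 fold change of 3.88 (SE 0.37, adjusted p = 0.0001384 by edgeR).

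The osteoblast and osteocyte genes were high in the same libraries as Tmem119. Of all genes, 28.6% were called lower in SB4 than in SB2 and 29% higher in BS6 than in BS2. All 5 of the osteoblast and osteocyte genes found in the table were called so in both. In the 3 libraries of BS6 their sum was 55512, 19056 and 79091 CPM, the same order as the Tmem119 levels of 197, 130 and 335 CPM. Col1a1, the collagen gene with the highest level among them, stayed at 2.55 to 4.01 CPM in SB4 and 3.89 to 9.41 CPM in BS2. The part of bone-forming cells in the Tmem119 level was not tested.

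Fcrls encodes an Fc receptor-like protein of microglia and other brain macrophages. The gene lies on chromosome 3 from 87250758 to 87263738 on the minus strand. Its level was 18.6, 16.6 and 20.02 CPM in SB2, 1.84, 3.04 and 2.12 CPM in SB4, 4.72, 6.21 and 5.23 CPM in BS2, and 13.04, 10.99 and 29.1 CPM in BS6. No library of SB4 or BS2 reached those of SB2 or BS6, and BS6 replicate 3 was the highest of all. Fcrls was 7.88-fold lower in SB4 than in SB2 (log2 fold change -2.96, SE 0.19, adjusted p = 4.105e-08 by edgeR). It was 3.29-fold higher in BS6 than in BS2 (log2 fold change 1.75, SE 0.40, adjusted p = 0.006644 by edgeR). The 4 microglial members thus split, with P2ry12 and Sall1 at higher levels in the libraries with brain transcripts (Sall1 called in BS6 against BS2 only) and Tmem119 and Fcrls higher in those with bone transcripts.

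The 4 shared members were all lower in SB4 than in SB2 and all higher in BS6 than in BS2. Csf1r, the receptor that macrophages and osteoclasts need for survival and differentiation, lies on chromosome 18 from 61100598 to 61132149 on the plus strand. Its level was 217, 226 and 204 CPM in SB2, 69.7, 76.4 and 72.9 CPM in SB4, 69.8, 74.2 and 65.2 CPM in BS2, and 318, 193 and 272 CPM in BS6. The levels of SB4 and BS2 lay close together and below all others. Csf1r was 2.96-fold lower in SB4 than in SB2 (log2 fold change -1.56, SE 0.07, adjusted p = 1.314e-09 by edgeR). It was 3.74-fold higher in BS6 than in BS2 (log2 fold change 1.94, SE 0.19, adjusted p = 0.0001461 by edgeR). Exons of Csf1r share 873 bases with Hmgxb3 on the opposite strand. Hmgxb3 was at 30.2 CPM in SB2, 45.4 CPM in SB4, 47.2 CPM in BS2 and 26.9 CPM in BS6 (group means), lower where Csf1r was higher. The part of Hmgxb3 reads in the Csf1r level, and so in the ratios to Csf1r given below, was not tested.

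Aif1 encodes the calcium-binding protein IBA1, the usual antibody target for microglia and macrophages in tissue sections. It lies on chromosome 17 from 35170991 to 35176068 on the minus strand. Its level was 8.54, 10.7 and 8.91 CPM in SB2, 3.33, 3.59 and 3.68 CPM in SB4, 4.13, 3.14 and 3.27 CPM in BS2, and 13.4, 12.3 and 10.2 CPM in BS6. The highest library of SB4 and BS2 (4.13 CPM) stayed below the lowest of SB2 and BS6 (8.54 CPM). Aif1 was 2.65-fold lower in SB4 than in SB2 (log2 fold change -1.40, SE 0.17, adjusted p = 1.307e-05 by edgeR) and 3.40-fold higher in BS6 than in BS2 (log2 fold change 1.80, SE 0.20, adjusted p = 0.0002515 by edgeR).

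Adgre1 encodes the adhesion receptor recognised by the F4/80 antibody, which is strong on many tissue macrophages. It lies on chromosome 17 from 57358691 to 57483527 on the plus strand. Its level was 30.5, 23.5 and 29.1 CPM in SB2, 3.33, 6.09 and 3.17 CPM in SB4, 4.31, 4.67 and 4.504 CPM in BS2, and 62.9, 19.6 and 25.3 CPM in BS6. BS6 replicate 1 was the highest library by a wide margin. Adgre1 was 6.60-fold lower in SB4 than in SB2 (log2 fold change -2.70, SE 0.23, adjusted p = 3.934e-06 by edgeR). It was 7.99-fold higher in BS6 than in BS2 (log2 fold change 3.03, SE 0.48, adjusted p = 0.001279 by edgeR). Without BS6 replicate 1 that log2 fold change was 2.36 (adjusted p = 0.0001462 by edgeR).

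Trem2 encodes a lipid-sensing receptor of microglia, macrophages and osteoclasts. It lies on chromosome 17 from 48346401 to 48354147 on the plus strand. Its level was 21.1, 22.7 and 20.4 CPM in SB2, 8.72, 9.95 and 11.3 CPM in SB4, 9.67, 8.77 and 7.84 CPM in BS2, and 47.6, 20.8 and 18.1 CPM in BS6. BS6 replicate 1 again stood above the other libraries, while the groups did not overlap in either comparison of days. Trem2 was 2.14-fold lower in SB4 than in SB2 (log2 fold change -1.09, SE 0.12, adjusted p = 5.966e-06 by edgeR). Without SB4 replicate 1 the log2 fold change was -0.99, under the fold threshold, with an adjusted p of 6.349e-05 by edgeR. Trem2 was 3.29-fold higher in BS6 than in BS2 (log2 fold change 1.75, SE 0.39, adjusted p = 0.006398 by edgeR).

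Osteoclasts were followed beside Csf1r and Trem2 with 9 genes found in the table. Their summed level was 3055 to 3354 CPM in SB2 and 1724 to 3656 CPM in BS6, against 21.4 to 22.4 CPM in SB4 and 17.2 to 19.3 CPM in BS2. All 9 were called lower in SB4 than in SB2 and higher in BS6 than in BS2, against 28.6% and 29% of all genes. Ocstamp and Atp6v0d2, needed for osteoclast fusion, had 0 counts in every library of SB4 and BS2, which allows at most 0.218 CPM in a library. In BS6 replicate 1, where Adgre1 and Trem2 were highest, the osteoclast sum of 3117 CPM lay between those of replicates 2 and 3 (1724 and 3656 CPM). The monocyte genes had a sum of 690 to 891 CPM in SB2, 4.01 to 9.95 CPM in SB4, 4.48 to 6.61 CPM in BS2 and 1178 to 2658 CPM in BS6, and all 5 moved with the shared members. The part of osteoclasts and monocytes in these levels was not tested.

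Mrc1 and Lyve1, the perivascular members, had the largest log2 fold changes of the 10 members in SB4 against SB2 and in BS6 against BS2. Mrc1 encodes the mannose receptor CD206 and lies on chromosome 2 from 14229392 to 14332057 on the plus strand. Its level was 123, 104 and 122 CPM in SB2, 1.35, 2.66 and 2.79 CPM in SB4, 2.18, 3.78 and 6.97 CPM in BS2, and 136, 127 and 117 CPM in BS6. SB2 and BS6 lay within the same range, far above SB4 and BS2. Mrc1 was 51.4-fold lower in SB4 than in SB2 (log2 fold change -5.64, SE 0.18, adjusted p = 1.199e-09 by edgeR). It was 29.4-fold higher in BS6 than in BS2 (log2 fold change 4.93, SE 0.41, adjusted p = 7.808e-05 by edgeR).

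Lyve1 encodes a hyaluronan receptor and lies on chromosome 7 from 110850607 to 110863239 on the minus strand. Its level was 19.3, 21.2 and 32.9 CPM in SB2, 0.142, 0.761 and 0.668 CPM in SB4, 0.531, 0.832 and 1.38 CPM in BS2, and 12.3, 24.3 and 14.4 CPM in BS6. The libraries of SB4 rested on 2, 14 and 12 counts, so the first of them was under the limit of 3 counts. Lyve1 was lower in SB4 than in SB2 (log2 fold change -5.45, SE 0.39, adjusted p = 2.079e-06 by edgeR) and higher in BS6 than in BS2 (log2 fold change 4.27, SE 0.44, adjusted p = 0.0001833 by edgeR).

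Lymphatic endothelium, the other source of Lyve1, was followed with 5 genes, and they did not move together. Flt4, Ccl21a and Mmrn1 were lower in SB4 than in SB2 and higher in BS6 than in BS2, as Lyve1 was. Prox1 and Reln moved the opposite way, with Prox1 at 1.87 CPM in SB2 and 20.02 CPM in SB4 (group means). The sum of the 5 genes was 60.8 to 81.4 CPM in SB2, 97.0 to 122 CPM in SB4, 99.0 to 112 CPM in BS2 and 65.9 to 88.1 CPM in BS6. Most of the sum in SB4 and BS2 was Reln, at 87.4 and 83.4 CPM (group means), a gene that brain neurons make as well. Ccl21a did not exceed 3 counts in any library of SB4 or BS2. The part of lymphatic endothelium in the Lyve1 level was not tested.

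**Figure D2:**
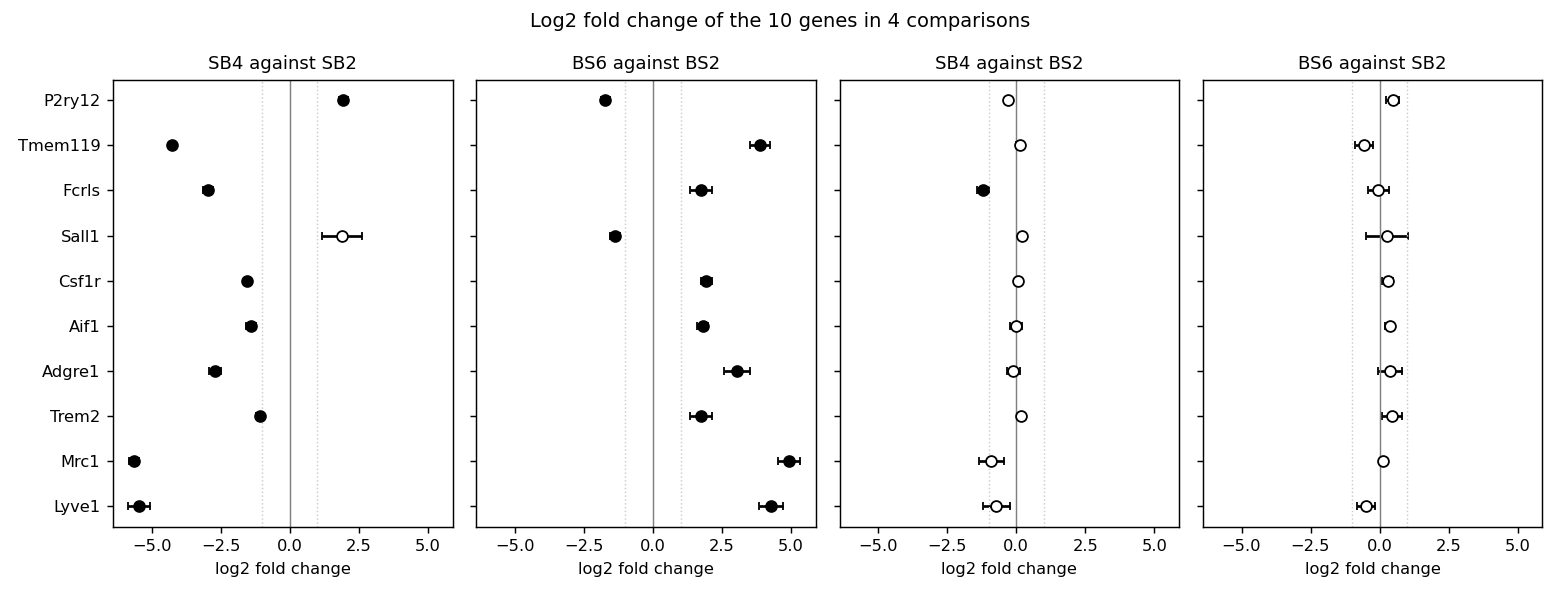
Log2 fold change of the 10 genes in 4 comparisons, with a bar of 1 SE to each side, filled points for called genes and dotted lines at the fold threshold. The signs in SB4 against SB2 are the reverse of those in BS6 against BS2 for all 10 genes, and in the other comparisons every point but that of Fcrls in SB4 against BS2 lies within 1 of 0.

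The change from SB2 to SB4 and the change from BS2 to BS6 were compared in a contrast over all 12 libraries. All 10 members were called, where 73.6% of 18068 genes tested were called in either direction. The contrast was positive for P2ry12 and Sall1 and negative for the other 8 members. The libraries labelled SB2 and BS6 both held bone transcripts, so the difference in tissue content adds up in this contrast, while a change over days common to both arms cancels. A change over days particular to 1 arm cannot be told apart from tissue content.

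The groups with brain transcripts, SB4 and BS2, were then compared with each other. They differ in their labels by site, injury and day. Of 16278 genes tested, 0.086% were called higher and 0.0614% lower in SB4, and of the members only Fcrls was called. Its levels of 1.84 to 3.04 CPM in SB4 did not overlap with those of 4.72 to 6.21 CPM in BS2, a log2 fold change of -1.21 (SE 0.22, adjusted p = 0.006484 by edgeR). The call rested on the setting, although the log2 fold change stayed close. Without BS2 replicate 2 it was -1.10 (adjusted p = 0.05108 by edgeR), and in a fit of all 12 libraries it was -1.21 (adjusted p = 0.8664 by edgeR). The counts behind it were 26, 56 and 38 in SB4 and 80, 97 and 72 in BS2.

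P2ry12 was slightly lower in SB4 than in BS2 in every library, with a log2 fold change of -0.28 (SE 0.08), and did not pass the adjustment (adjusted p = 0.09463 by edgeR). The libraries of the other 8 members overlapped. Mrc1 had a log2 fold change of -0.90 with an SE of 0.44 and Lyve1 one of -0.72 with an SE of 0.49, and neither passed the test (adjusted p = 0.4844 and 0.6099 by edgeR). Csf1r had the smallest error, at 0.05 with an SE of 0.06, and Aif1 was the closest to 0, at -0.01 with an SE of 0.21. None of the members was called higher by edgeR or DESeq2, and 2 of the 10 had an unadjusted p under 0.05.

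The groups with bone transcripts, BS6 and SB2, overlapped in all 10 members. Of 16329 genes tested, 1.11% were called higher and 0.741% lower in BS6, and 0 of the 10 members were called by edgeR, 0 by DESeq2 and 0 had an unadjusted p under 0.05. The log2 fold changes ran from -0.56 for Tmem119 (SE 0.32) to 0.48 for P2ry12 (SE 0.24). Aif1 had the smallest unadjusted p, with a log2 fold change of 0.37 (SE 0.17, adjusted p = 0.2089 by edgeR). Sall1 was the least certain, at 0.28 with an SE of 0.76.

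The order of the 4 groups follows from these levels. For P2ry12 the group means were 48.2 ± 3.45 CPM in BS2, 40.0 ± 2.87 CPM in SB4, 14.2 ± 2.86 CPM in BS6 and 10.4 ± 2.41 CPM in SB2 (SD, n = 3). BS6 and SB2, neighbours in this order, overlapped, and BS2 and SB4 did not overlap but were not called different. For Csf1r the order was BS6 at 261 ± 62.9 CPM, SB2 at 216 ± 10.7 CPM, SB4 at 73.0 ± 3.39 CPM and BS2 at 69.7 ± 4.53 CPM. For Mrc1 it was BS6 at 127 ± 9.40 CPM, SB2 at 116 ± 10.5 CPM, BS2 at 4.31 ± 2.44 CPM and SB4 at 2.27 ± 0.797 CPM. In both orders only the step between SB2 and the groups with brain transcripts was larger than the spread.

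Levels of different genes were compared per length of the longest protein-coding transcript. On this scale Tmem119 was the highest member in SB2 and BS6, at 146 and 98.4 CPM per kb, followed by Csf1r at 45.9 and 55.5 CPM per kb. In SB4 and BS2 P2ry12 was the highest member, at 17.1 and 20.6 CPM per kb, followed by Csf1r at 15.5 and 14.8 CPM per kb. Mrc1 went from 21.7 CPM per kb in SB2, behind Tmem119 and Csf1r alone, to 0.422 CPM per kb in SB4, where only Lyve1 was lower at 0.181 CPM per kb. Sall1 was the lowest member in SB2 and BS6, at 1.12 and 1.34 CPM per kb.

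**Figure D3:**
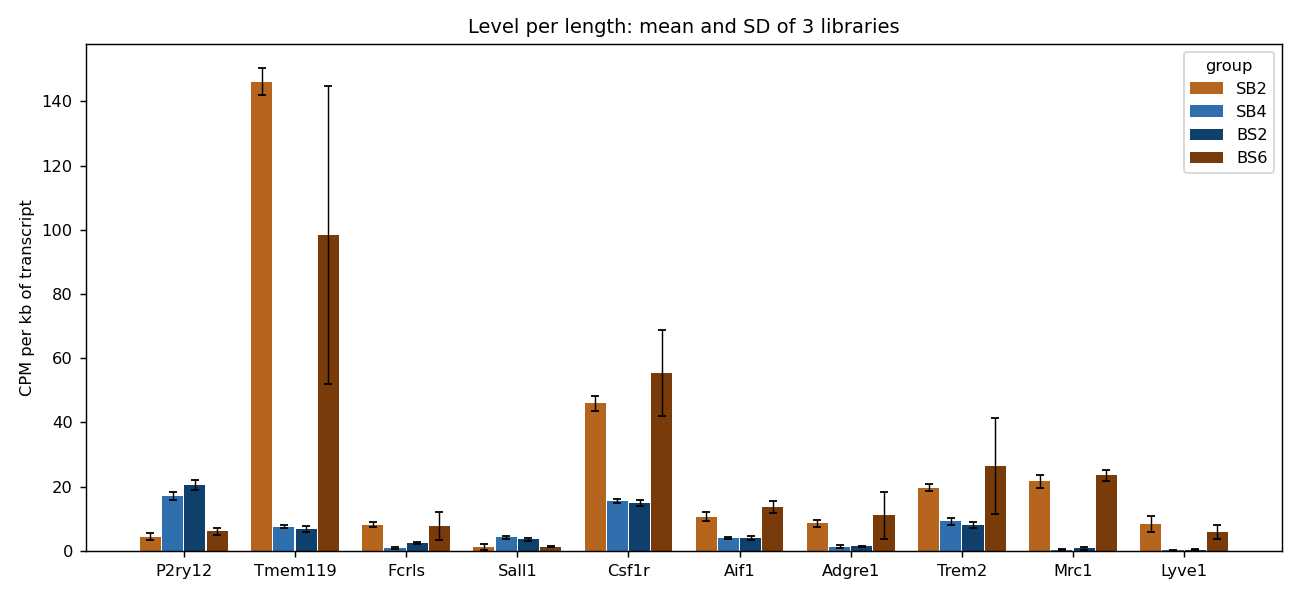
Mean level of each gene in CPM per kb of its longest protein-coding transcript in the 4 groups, with bars of 1 SD over 3 libraries. Tmem119 and Csf1r lead in SB2 and BS6, and P2ry12 and Csf1r lead in SB4 and BS2.

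Ratios within a library contrast microglial with other macrophage genes without use of the library size. P2ry12 had 0.0342 to 0.0609 counts per count of Csf1r in SB2 and 0.0388 to 0.0907 in BS6, against 0.499 to 0.595 in SB4 and 0.596 to 0.772 in BS2. Sall1 had 0.00325 to 0.0496 in SB2 and 0.0203 to 0.0325 in BS6, against 0.262 to 0.353 in SB4 and 0.253 to 0.293 in BS2. Both microglial genes thus took a larger share beside Csf1r in every library with brain transcripts. Tmem119 had 1.41 to 1.65 counts per count of Csf1r in SB2 and 0.620 to 1.23 in BS6, against 0.214 to 0.259 in SB4 and 0.201 to 0.234 in BS2. Fcrls, the remaining microglial member, did not divide the libraries this way. Its mean ratio to Csf1r was 0.0856 in SB2, 0.0318 in SB4, 0.0772 in BS2 and 0.0684 in BS6.

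Among the shared members, Adgre1 had 0.104 to 0.142 counts per count of Csf1r in SB2 and 0.0929 to 0.198 in BS6, against 0.0436 to 0.0797 in SB4 and 0.0617 to 0.0691 in BS2, lower in every library with brain transcripts. Aif1 kept a nearly level ratio to Csf1r. Its group means were 0.0434, 0.0484, 0.0505 and 0.0477 in SB2, SB4, BS2 and BS6, and the ranges of the 4 groups all overlapped, the highest library of SB2 being at 0.0472 and the lowest of SB4 at 0.0469. Trem2 had means of 0.0992, 0.137, 0.126 and 0.108 in the same order of groups. Mrc1 had means of 0.542, 0.0308, 0.0631 and 0.505. The ratio of P2ry12 to Mrc1 was 0.0741 to 0.102 in SB2 and 0.0905 to 0.138 in BS6, against 14.3 to 28.7 in SB4 and 7.21 to 23.0 in BS2.

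The sum of the 4 microglial members did not follow P2ry12, because Tmem119 made up most of it in the bone libraries. Per count of Csf1r the sum was 1.52 to 1.86 in SB2, 1.02 to 1.19 in SB4, 1.17 to 1.31 in BS2 and 0.720 to 1.42 in BS6. Per count of Mrc1 it was 2.96 to 3.29 in SB2 and 1.30 to 3.28 in BS6, against 29.1 to 61.7 in SB4 and 12.2 to 42.0 in BS2. Per count of Adgre1 it was 11.9 to 14.6 in SB2, 12.7 to 26.4 in SB4, 18.5 to 21.3 in BS2 and 3.64 to 15.2 in BS6. The ratio to Mrc1 separated the libraries with brain transcripts from the others, while the ratios to Csf1r and Adgre1 overlapped between them.

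**Figure D4:**
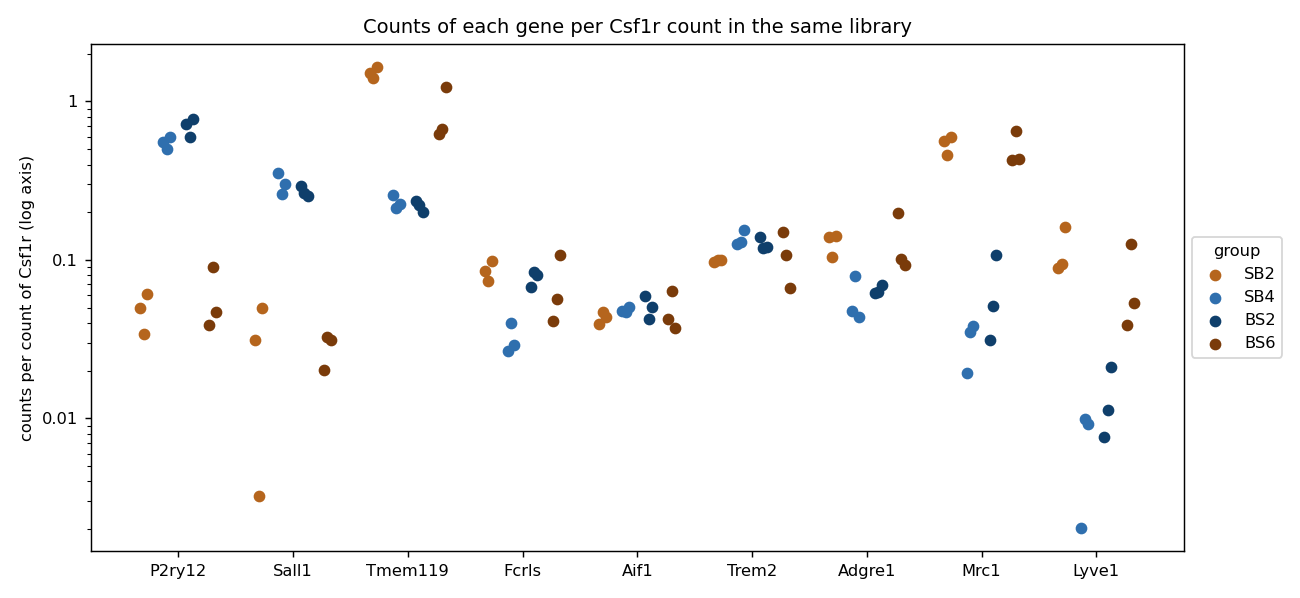
Counts of 9 genes per count of Csf1r in the same library (log axis), with a point for each of the 3 libraries of SB2, SB4, BS2 and BS6. P2ry12 and Sall1 are higher in SB4 and BS2 than in SB2 and BS6, Tmem119, Mrc1 and Lyve1 are lower there, and Aif1 is nearly level.

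Further genes of the same cells were taken from lists. Of 9 further microglial genes, 4 were called higher and 2 lower in SB4 than in SB2 (median log2 fold change 0.68), and 2 were called higher and 3 lower in BS6 than in BS2 (median -0.34). Over all genes 27.8% were called higher and 28.6% lower in SB4, and 29% higher and 26.5% lower in BS6, so most of these counts lie near the background. The higher ones in SB4 were Siglech, P2ry13, Slc2a5 and Crybb1. Siglech, a lectin gene of microglia and plasmacytoid dendritic cells, was at 13.3 to 13.9 CPM in SB4 and 13.8 to 16.4 CPM in BS2, against 1.07 to 3.08 CPM in SB2 and 2.11 to 4.01 CPM in BS6. Slc2a5 was under 2 CPM in every group mean. Cx3cr1, the fractalkine receptor gene, had a log2 fold change of 0.68 in SB4 against SB2 and of -0.18 in BS6 against BS2 and was called in neither, in the first because it missed the fold threshold (adjusted p = 8.918e-05 by edgeR).

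Olfml3 and Selplg moved the opposite way to most of this list. Olfml3, a secreted matrix protein gene listed as microglial, was at 518, 572 and 609 CPM in SB2 and 432, 213 and 492 CPM in BS6. It stayed at 8.54 to 9.69 CPM in SB4 and 9.37 to 10.1 CPM in BS2. Its log2 fold change was -5.96 in SB4 against SB2 and 5.30 in BS6 against BS2, the largest of the list in both. Selplg, the gene of the P-selectin ligand of leukocytes, had log2 fold changes of -1.11 and 2.60, and was at 155 CPM in BS6 replicate 2 against 37.8 and 40.9 CPM in replicates 1 and 3. That library also held the most neutrophil transcripts of the group, a sum of 24343 CPM for 6 genes against 1408 and 3313 CPM, and their part in the Selplg level was not tested.

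Of 12 further perivascular and resident macrophage genes, 10 were in the table. All 10 were called lower in SB4 than in SB2 and higher in BS6 than in BS2, against 28.6% and 29% of all genes. Their median log2 fold change was -5.48 and 6.34, or -5.32 and 5.45 with genes under 3 counts at their bound. Cbr2, a carbonyl reductase gene, had the largest change in SB4 against SB2, from 31.2 to 0.254 CPM (group means, log2 fold change -6.87). Siglec1, the gene of sialoadhesin, had the largest change in BS6 against BS2, from 0.226 to 49.1 CPM (log2 fold change 7.80). Stab1, a scavenger receptor gene, had the highest level in SB2 and BS6, at 260 and 273 CPM, and Maf, a transcription factor gene, in SB4 and BS2, at 29.5 and 31.7 CPM. The platelet and monocyte sums were also higher in SB2 and BS6 than in SB4 and BS2. The part of platelets, monocytes and other cells in the levels of this list was not tested.

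Of 11 further shared macrophage genes, 10 were called lower in SB4 than in SB2 and 10 higher in BS6 than in BS2. The shares of all genes called so were 28.6% and 29%. The list's median log2 fold change was -2.05 and 3.38 in these comparisons. Mertk, a receptor for the uptake of dying cells, was the one not called in either, at 28.5 CPM in SB2, 34.4 CPM in SB4, 28.4 CPM in BS2 and 38.1 CPM in BS6 (group means). Lgmn, a lysosomal protease gene, had the highest level of the list in every group, from 89.8 CPM in BS2 to 294 CPM in SB2. Cd68, a lysosomal glycoprotein gene, had the largest change in SB4 against SB2, with a log2 fold change of -4.45, and Itgam, the integrin gene of CD11b, in BS6 against BS2, with one of 4.44, close to that of Cd68 at 4.40. Itgam was at 41.5, 217 and 44.0 CPM in BS6, highest in replicate 2, the library with the most neutrophil transcripts, and their part in its level was not tested.

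Of the 8 CSF1R ligand and myeloid transcription factor genes, 6 were called lower and 2 higher in SB4 than in SB2. The same counts held with the signs turned in BS6 against BS2. The shares of all genes were 28.6% lower and 27.8% higher in SB4, and 29% higher and 26.5% lower in BS6. The ligands split. Csf1 was at 196 CPM in SB2 and 116 CPM in BS6 against 19.1 CPM in SB4 and 17.1 CPM in BS2, while Il34 was at 22.2 and 20.4 CPM against 44.4 and 44.4 CPM (group means). Il34, which neurons make in the brain, had log2 fold changes of 1.01 and -1.09. Mef2c, a factor of microglia that cortical neurons express as well, moved the same way, with log2 fold changes of 3.11 and -3.76 and levels of 1361 CPM in SB4 and 1522 CPM in BS2. Spi1, the gene of PU.1, was at 63.4 CPM in SB2 and 151 CPM in BS6 against 2.17 CPM in SB4 and 1.88 CPM in BS2. Within BS6 it was at 90.4, 287 and 75.9 CPM, highest in the library with the most neutrophil transcripts. Runx1, a factor of blood cell development, had the largest change in SB4 against SB2, with a log2 fold change of -6.18.

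Of 12 TREM2 signalling and response genes, 11 were called lower in SB4 than in SB2 and 11 higher in BS6 than in BS2. Of all genes, 28.6% and 29% were called so. The list's median log2 fold change was -3.69 and 5.15 in these comparisons. Spp1, which encodes osteopontin and is also made by bone cells, led both with log2 fold changes of -11.13 and 10.60 and was at 3341 CPM in SB2 and 3015 CPM in BS6 against 1.45 and 1.99 CPM in SB4 and BS2. Apoe, the lipid carrier gene that astrocytes make as well, missed the fold threshold in both, with log2 fold changes of 0.71 (adjusted p = 2.171e-05 by edgeR) and 0.83 (adjusted p = 0.001721 by edgeR). It was at 676 CPM in SB2, 1103 CPM in SB4, 1123 CPM in BS2 and 1945 CPM in BS6. Tyrobp, the gene of the adaptor through which TREM2 signals, was at 63.3, 4.01, 3.63 and 107 CPM in SB2, SB4, BS2 and BS6 (group means). Within BS6 it was at 81.7, 173 and 66.5 CPM, highest in replicate 2, the library with the most neutrophil transcripts. Syk and Plcg2 of the same list were highest in that library too, at 236 and 119 CPM. The part of neutrophils in these levels was not tested.

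Between SB4 and BS2 none of the tested genes of these 5 lists was called by edgeR, where 0.086% of all genes were called higher and 0.0614% lower, so that a count of 0 lies near the background. Only 5 of the 10 perivascular genes and 9 of the 12 TREM2 genes had enough counts to be tested there. C1qb and C1qc, which encode chains of the complement component C1q, were higher in every library of SB4 and missed only the fold threshold, with log2 fold changes of 0.55 (adjusted p = 0.02717 by edgeR) and 0.54 (adjusted p = 0.03953 by edgeR). Between BS6 and SB2 only Irf8 and Apoe were called among the tested genes of these lists, both higher in BS6. Over all genes 1.11% were called higher and 0.741% lower there. Irf8, a factor of monocytes and microglia, was at 48.9, 81.8 and 48.7 CPM in BS6 against 21.9, 23.8 and 17.9 CPM in SB2 (log2 fold change 1.52, SE 0.25, adjusted p = 0.03412 by edgeR). It was highest in BS6 replicate 2, the library with the most neutrophil transcripts. The monocyte sum was also higher in BS6, at 1178 to 2658 CPM against 690 to 891 CPM, though 0 of its 5 genes were called. The part of these cells in the Irf8 level was not tested. Apoe was at 1972, 2101 and 1761 CPM against 630, 766 and 631 CPM (log2 fold change 1.54, SE 0.17, adjusted p = 0.02634 by edgeR). Neither group overlapped the other, but 0 genes in all were called by edgeR in this comparison once SB2 replicate 1, 2 or 3 was left out.

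**Figure D5:**
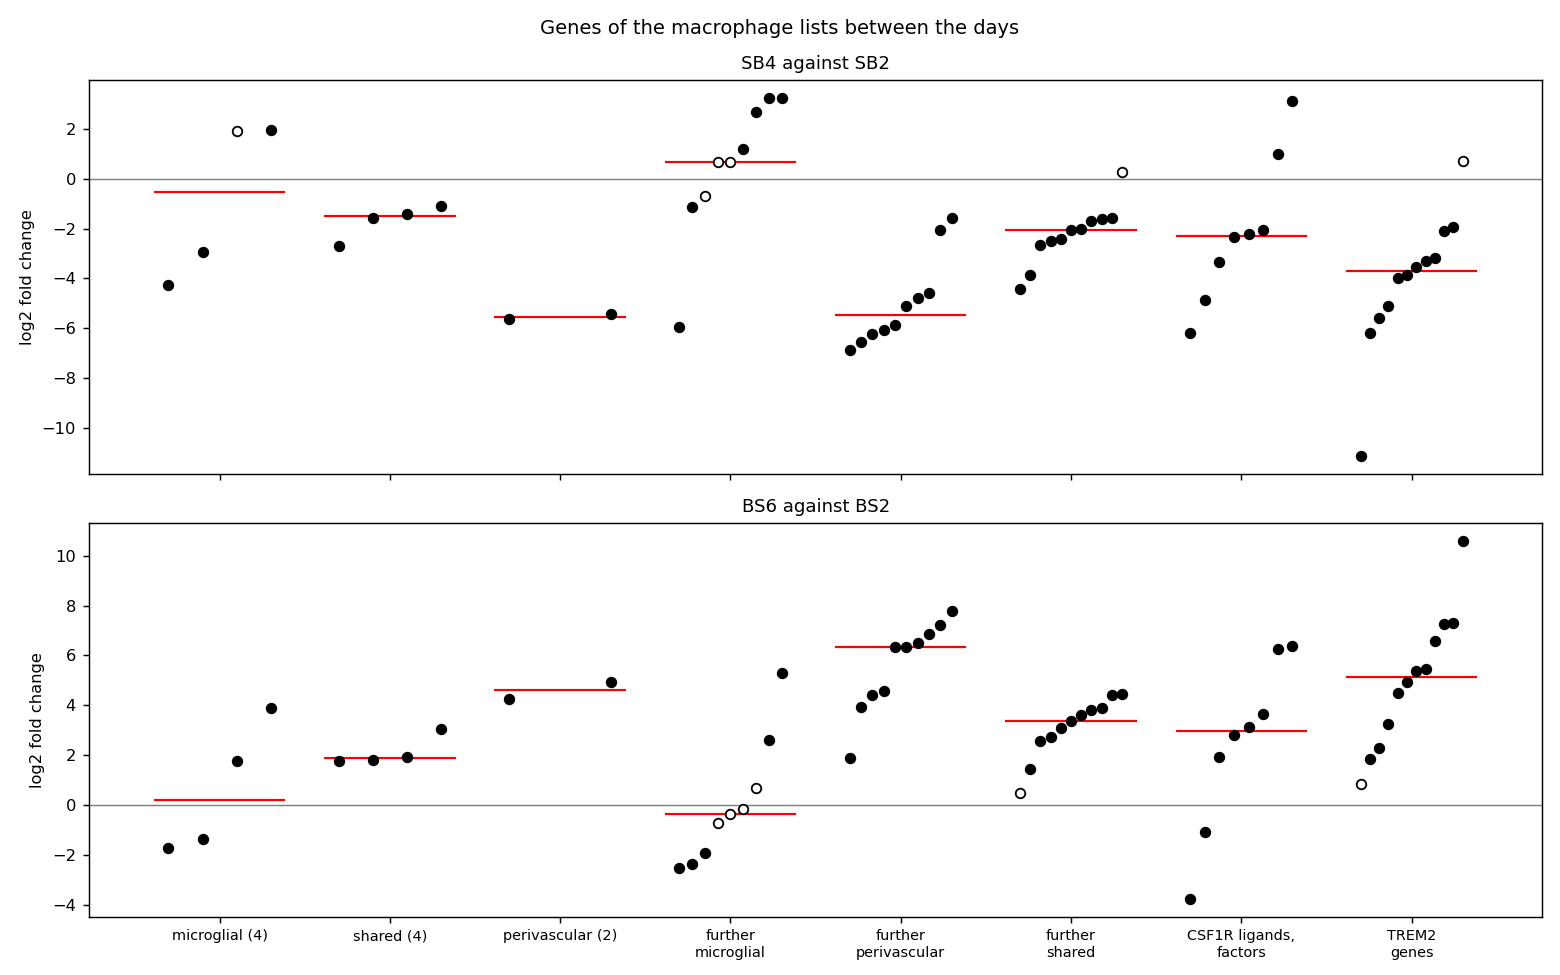
Log2 fold change of each gene of the 3 member lists and 5 further lists in SB4 against SB2 and in BS6 against BS2, with filled points for called genes and a red line at the list's median. The microglial lists spread to both sides of 0, while the perivascular lists lie wholly on one side.

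The genes with levels most like those of P2ry12, Mrc1 and Adgre1 over the 12 libraries were found by the root mean square difference of log2(CPM + 1), each gene centred on its mean, among 11372 other genes that averaged 10 CPM or more. The closest to P2ry12 were Slc24a3 (0.166), Usp46 (0.168), Unc13b (0.170), Slc4a10 (0.175) and Tiam1 (0.178). None of these is in a microglial list, and Unc13b and Slc4a10 are known from neurons. Slc24a3, for example, was at 27.5 CPM in SB2, 121 CPM in SB4, 122 CPM in BS2 and 39.5 CPM in BS6 (group means).

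Among the closest to Mrc1 were Colec12 (0.264), Ahnak (0.266), Zic1 (0.272) and Islr (0.312), none of which is in a macrophage list. Among the closest to Adgre1 were Tep1 (0.301), Snx9 (0.304), Ctsl (0.309) and Plxnb2 (0.322), of which Ctsl is a lysosomal protease gene. All of these values describe likeness over libraries that differ mainly in tissue content.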

How the data were processed

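Poly(A) mRNA of 12 mouse tissue samples, 3 in each of 4 groups, was sequenced from both ends. Per the labels and the study's methods, reads were filtered by fastp and aligned by HISAT2 2.1.0 to mm10, and the authors deposited raw counts per gene symbol with no normalization. The counting program, the annotation, the use of strand and whether the deposited counts precede a ComBat_seq correction are not given in the sources used here. The table held 0 columns of other samples, and groups were taken from the sample titles. Coordinates are those of GENCODE on mm10, where 22022 of the 22317 symbols were found.

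The test was the robust quasi-likelihood test of edgeR 4.0.16 (R 4.3.3) after TMM scaling and a low-count filter (filterByExpr, 10 counts), with Benjamini-Hochberg adjustment over all genes tested, in fits of 2 groups of 3 libraries, and the difference between both changes over all 12. The script was tested on simulated data. DESeq2 1.42.0, other scalings and filters, a replicate block and leaving out each library were alternatives. Levels are CPM with TMM factors over the 12 libraries. Nothing links single libraries to animals, so the p-values measure the spread between these samples. Replicate pairs differed by more than sampling noise.

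The members, gene lists, marker lists and tests were chosen with earlier results of these data known. The genes named were all members, and of each further list the gene with the highest mean in each group, the called gene with the largest change in each comparison, and those called against most of their list. Other listed genes were named after their values were seen, and some genes that the rules name are not reported here. The PU box was chosen after a longer form of it gave no match. Timd4, Vsig4, Calcr, Gp1bb and Bglap were not in the table under these symbols.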

Additional observations from a re-analysis of the deposited data

Results flagged for a closer look

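The change from SB2 to SB4 differed from the change from BS2 to BS6 for all 10 members, by a contrast over the 12 libraries in edgeR with Benjamini-Hochberg adjustment. The difference between both log2 changes was positive for P2ry12, at 3.66 (adjusted p = 7.886e-08), and for Sall1, at 3.28 (adjusted p = 0.00216). It was negative for Tmem119 at -8.16 (adjusted p = 6.028e-09) and Fcrls at -4.73 (adjusted p = 2.312e-06). Of the shared members, Csf1r was at -3.51 (adjusted p = 1.54e-08), Aif1 at -3.21 (adjusted p = 1.332e-07), Adgre1 at -5.76 (adjusted p = 2.985e-06) and Trem2 at -2.86 (adjusted p = 7.723e-05). Mrc1 was at -10.60 (adjusted p = 2.985e-09) and Lyve1 at -9.75 (adjusted p = 7.203e-08). The same contrast called 73.6% of all genes tested, and tissue content adds up in it, while a change over days common to both arms cancels.

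Single libraries moved 4 of these differences by over 1.5 times on the fold scale, without ending a call. Without BS6 replicate 1, Adgre1 was at -5.03 and Trem2 at -2.24. Fcrls was at -4.11 without BS6 replicate 3, and Sall1 at 3.91 without SB2 replicate 3.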

How the results depend on the processing

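Under other settings 789 log2 fold changes of members kept their direction and their side of the thresholds, 4 newly passed, 3 no longer passed, and none that was called changed sign. The exceptions are Sall1, Trem2 and Fcrls as given beside their values. In SB4 against SB2, 2 members were called higher with DESeq2 and with all 12 libraries in a single fit, and 1 to 2 with 1 library left out, the second being Sall1. In SB4 against BS2, 0 members were called lower with all 12 libraries in a single fit and 0 to 1 with 1 library left out.

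Counts over all genes moved mainly between groups of like tissue. For SB4 against BS2, against 14 higher and 10 lower, they were 93 and 60 with the adjusted p alone, 24 and 17 with DESeq2, 26 and 24 without a filter on low counts, 3 and 5 with all 12 libraries, and 9 higher with at least 10 counts in every library. With 1 library left out they were 11 to 68 higher and 7 to 47 lower. For BS6 against SB2, against 182 and 121, they were 373 and 559 with the adjusted p alone, 750 and 305 with DESeq2, 947 and 326 with all 12 libraries, and 0 to 397 and 0 to 270 with 1 library left out. The cause was not tested.

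With the replicate number as a block, 22 genes were higher and 39 lower in SB4 against BS2 and 0 and 0 in BS6 against SB2, and no count of members called changed. The numbers did not pair the libraries, since the deviations of same-numbered libraries correlated at -0.177 to 0.136, and not every library correlated best with its own number. Upper-quartile factors shifted the median of all genes by -0.13 in SB4 against SB2 and by -0.17 in the difference between both changes, small beside the members' changes there. The mean level of Tmem119 in SB2 was 339 CPM by total counts alone. Depth limits Lyve1 in SB4, which rests on 2 to 14 counts.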
